A study of Mus musculus with 9 samples.

Results

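The mouse mitochondrial genome encodes 13 proteins of the respiratory chain, and 10 of these protein genes were followed here: mt-Nd1, mt-Nd2, mt-Nd4, mt-Nd5 and mt-Nd6 of complex I, mt-Cytb of complex III, mt-Co1, mt-Co2 and mt-Co3 of complex IV, and mt-Atp6 of complex V. They were chosen by symbol, as 10 of the 32285 rows of the gene table. Livers of Tet-OFF mice were sequenced in 3 groups with 3 libraries each. The mice carried a piggyBac CAG-CreERT2 transgene, a loxP-stop-loxP tTA allele and a tetO-Venus-ires-mCherry reporter at Rosa26, and all groups, controls included, were labelled as treated with tamoxifen, which lets Cre remove the stop cassette so that tTA is made. Male mice of 4 weeks were given doxycycline (Dox hyclate) or tetracycline (Tc hydrochloride) at 2 mg/mL in drinking water with sucrose at 10 mg/mL for 7 days. Whether control mice drank sucrose is not given in the sources used here. The CAG promoter is broadly active, so the allele is not limited to hepatocytes. Both antibiotics also switch off tTA, so the drug and the loss of tTA activity cannot be told apart in comparisons with controls.

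Mitochondrial DNA is transcribed from both strands into long precursors, which are cut into messenger, ribosomal and transfer RNAs, and most protein genes, all members except mt-Nd6, lie on the same transcript. The messages are translated inside the organelle by its own ribosome. That ribosome resembles the bacterial one, and tetracyclines are known to block it, so the members are the messages whose translation these antibiotics reach. Dox and Tc share a ring core and differ in the ring position of a hydroxyl group.

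The study counted only reads that mapped to a single place, and 3 of the 10 members were lost to this rule, with a mean under 10 normalized counts over the 9 libraries. A normalized count is a read count divided by a size factor for the library. mt-Co2 and mt-Co3 were listed at 0 in all 9 libraries, and mt-Atp6 at 0 in all but the second Dox library, where 1 read was counted. A count of 0 allows up to 3 reads, which is 2.53 to 3.81 normalized counts depending on the library, and covers counting error only. The other 7 members had at least 977 normalized counts in every library and were tested. The same 3 members were lost at a minimum of 50.

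The reference annotation of GRCm38 holds pseudogenes, copies of mitochondrial DNA in the nucleus, that are identical to the lost members over reads of this length. The reads were 86 bases long, so every window of 86 bases in each mitochondrial protein gene was searched for among 141730 annotated transcripts outside the mitochondrial genome. An exact nuclear copy was found for 596 of 599 windows of mt-Co2 (99.5%), 698 of 699 windows of mt-Co3 (99.9%) and 593 of 596 windows of mt-Atp6 (99.5%). The copies were the unprocessed pseudogenes Gm28661 (mt-Co2), Gm28437 (mt-Co3) and Gm10925 (mt-Atp6), each 100% identical over its length. They belong to a run of 7 pseudogenes on the minus strand of chromosome 1, chr1:24611535-24616197, which spans 4663 bases and keeps the order of the mitochondrial genes from the end of mt-Co1 to the middle of mt-Nd4. None of these pseudogenes had a row in the table. A stretch from the middle of each lost gene is shown to let the reader see what the aligner saw, since a read from it fits the chromosome 1 copy as well as the mitochondrial gene. The stretches are exonic, on the plus strand of the mitochondrial genome, at chrM:7310-7395, chrM:8955-9040 and chrM:8223-8308, and all letters are lower case because no base differs from the nuclear copy.
mt-Co2: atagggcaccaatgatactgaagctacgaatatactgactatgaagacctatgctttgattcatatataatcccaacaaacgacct
mt-Co3: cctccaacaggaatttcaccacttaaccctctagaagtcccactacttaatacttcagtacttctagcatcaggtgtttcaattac
mt-Atp6: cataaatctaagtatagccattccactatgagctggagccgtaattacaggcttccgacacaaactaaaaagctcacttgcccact

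3 of the members that kept their reads differ throughout from annotated nuclear copies. No window of mt-Nd1, mt-Nd6 or mt-Cytb had an exact nuclear copy. The closest copies on chromosome 4 were Gm11834 for mt-Nd1 (76.6% identity over 509 bases), Gm11408 for mt-Nd6 (93.6% over 519 bases) and Gm11410 for mt-Cytb (92.9% over 1142 bases). The stretches below, at chrM:3410-3495 and chrM:14674-14759 on the plus strand, are paired with their nuclear copies to show the contrast with the lost genes, and capitals mark the bases that differ: 24 of 86 in mt-Nd1 and 6 of 86 in mt-Cytb.
mt-Nd1: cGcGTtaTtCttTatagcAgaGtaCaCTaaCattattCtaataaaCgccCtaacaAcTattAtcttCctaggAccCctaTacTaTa
Gm11834: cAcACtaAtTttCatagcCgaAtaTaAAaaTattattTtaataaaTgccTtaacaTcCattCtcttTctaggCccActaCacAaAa
mt-Cytb: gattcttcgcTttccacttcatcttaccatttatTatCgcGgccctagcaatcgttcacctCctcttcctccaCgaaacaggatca
Gm11410: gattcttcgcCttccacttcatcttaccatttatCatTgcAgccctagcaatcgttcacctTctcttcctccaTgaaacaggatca

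Some members were covered only in part. mt-Nd4 (chrM:10167-11544) shared 791 of its 1293 windows (61.2%) with the pseudogene Gm28439, which copies its first 876 bases, so its reads came from the later part of the gene. mt-Co1 shared 509 of 1460 windows (34.9%) with Gm29216 on chromosome 1 and Gm13340 on chromosome 2. mt-Nd2 shared 4.62% and mt-Nd5 0.575%. Counts of mt-Nd4 and mt-Co1 therefore stand for a part of the message, in every group alike. The 3 protein genes outside the member list were also nearly empty: mt-Nd3 had 2.7 to 11.5 normalized counts, mt-Nd4l 0 to 2.3, and mt-Atp8 0 in all libraries. mt-Nd3 shared 97.7% and mt-Nd4l 98.6% of windows with nuclear copies, and the 5′ end of mt-Nd3 differed from Gm28438 by 1 base (T3C, the mitochondrial base first, counted from the gene's 5′ end). mt-Atp8 was the exception, at 0 with no annotated exact copy. It lies between mt-Co2 and mt-Atp6, which are 230 bases apart, and the corresponding pseudogenes Gm28661 and Gm10925 are 233 bases apart with no gene model between them. That interval was not searched here, since only transcripts were compared. The table had no rows for the mitochondrial ribosomal and transfer RNAs.

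**Figure D1:**
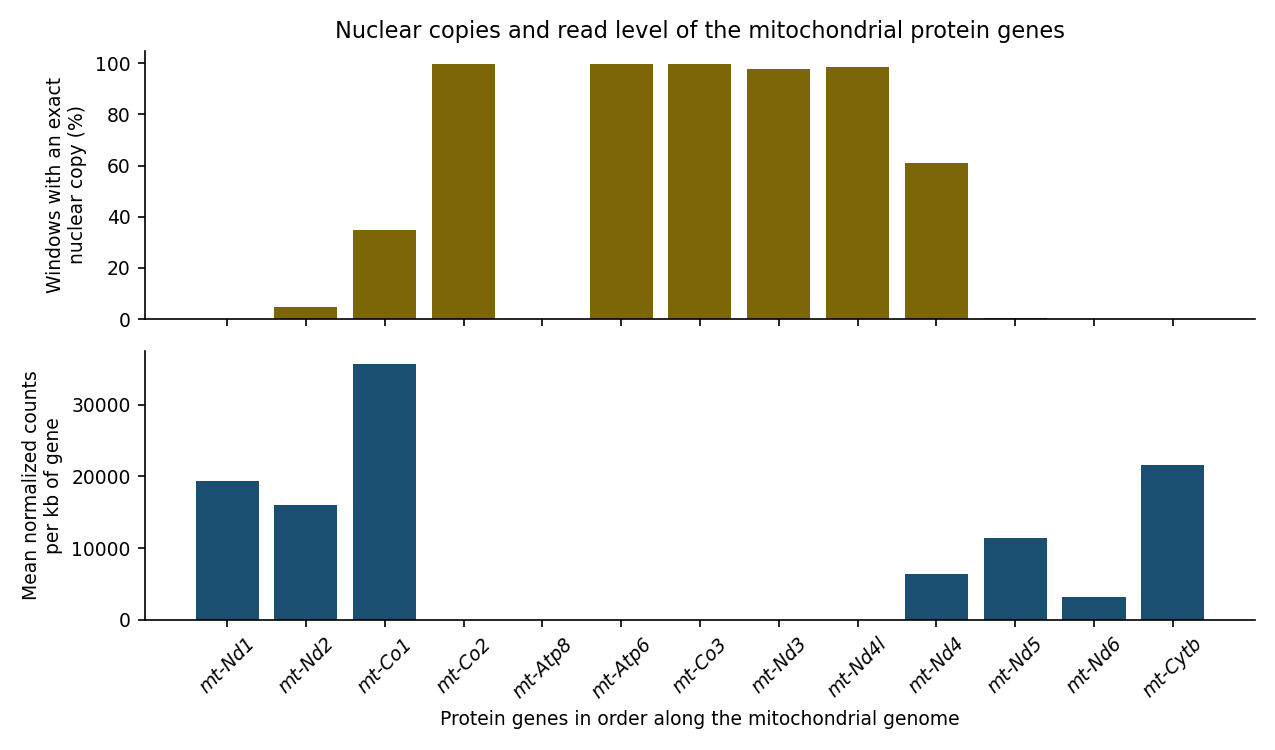
The upper bars give, for the 13 mitochondrial protein genes in genome order, the percent of 86-base windows with an exact copy among annotated nuclear transcripts, and the lower bars the mean normalized counts per kb of gene over the 9 libraries. Genes with nearly all windows copied (mt-Co2, mt-Atp6, mt-Co3, mt-Nd3, mt-Nd4l) stand at or near 0 below, and mt-Atp8 stands at 0 with no copied window.

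Sequencing gave 7426136 to 12183041 reads on genes per library. For most nuclear genes, the third library of every group could be written as a weighted mix of the other two, with fitted weights of 58.0% and 42.0% in controls, 61.4% and 34.5% with Dox and 61.6% and 37.2% with Tc, and 4.33% to 16.9% of 9379 genes lay outside the range of the other libraries by over 10%. The study describes its replicates as independent samples. Whether libraries 3 share material with the others was not tested, and if they do, p-values from all 9 libraries are too small, so results without libraries 3 are given beside them. Hepatocyte markers, 12 of 12 at a mean of at least 10 with none at 0, summed to 1580160 to 2121860 normalized counts in controls, 840108 to 1240540 with Dox and 1310290 to 1872380 with Tc. The most abundant markers weigh most in such a sum. Single markers differed from controls with Dox by -1.76 to 1.71 on the log2 scale, with a median of -0.44.

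Among the tested members, per length, mt-Co1 was the most abundant message and mt-Nd6 the least. To compare genes, counts were divided by the number of windows without a nuclear copy. In controls, mt-Co1, the catalytic core of complex IV, stood at 40438 normalized counts per 1000 such windows. mt-Cytb, the cytochrome b of complex III, stood at 16657 and mt-Nd1 at 14574 on the same scale. mt-Nd4 at 11748, mt-Nd2 at 11278 and mt-Nd5 at 8222 followed, and mt-Nd6 at 3728 was last. mt-Co1 exceeded mt-Cytb, and mt-Nd5 exceeded mt-Nd6, in 9 of 9 libraries with no overlap in any group. The neighbours between them, mt-Cytb, mt-Nd1, mt-Nd2 and mt-Nd4, overlapped within every group, and their order varied between libraries. mt-Nd4 exceeded mt-Nd5 in all 9 libraries on this scale, with ranges that overlapped in controls and with Tc, while per kb of the whole gene mt-Nd4 (6315) stood below mt-Nd5 (11425), since most of mt-Nd4 cannot be counted.

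With Dox, the 6 tested members of the shared strand were higher than in controls in every library, by 0.79 to 1.16 on the log2 scale, and mt-Nd6 of the other strand was not. None passed the adjusted threshold in the first fit. mt-Nd1, a core membrane subunit of complex I, had 13929, 8696 and 15502 normalized counts in controls and 23289, 32946 and 25508 with Dox. mt-Nd2, another membrane subunit, had 11054, 7378 and 12323 in controls and 26048, 19617 and 21931 with Dox. For both genes the lowest Dox library lay above the highest control, and the second control library was the lowest of the 9.

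mt-Nd5, a proton-pumping subunit of complex I, had 15010, 11121 and 16518 normalized counts in controls and 27205, 34241 and 27397 with Dox. mt-Nd4, another pumping subunit, had 5872, 4523 and 7298 in controls and 11676, 10723 and 10578 with Dox. The groups did not overlap, and the Dox values of mt-Nd4 lay close together. mt-Co1 had 40983, 29172 and 45214 in controls and 67718, 70142 and 65133 with Dox. mt-Cytb had 18102, 13965 and 20852 in controls and 28748, 33749 and 27958 with Dox. mt-Nd6, the only member on the minus strand, had 2158, 1462 and 1235 normalized counts in controls and 2094, 1568 and 1948 with Dox. Its groups overlapped throughout. In bulk liver, more mitochondria-rich cells and more of these RNAs per cell cannot be told apart.

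**Figure D2:**
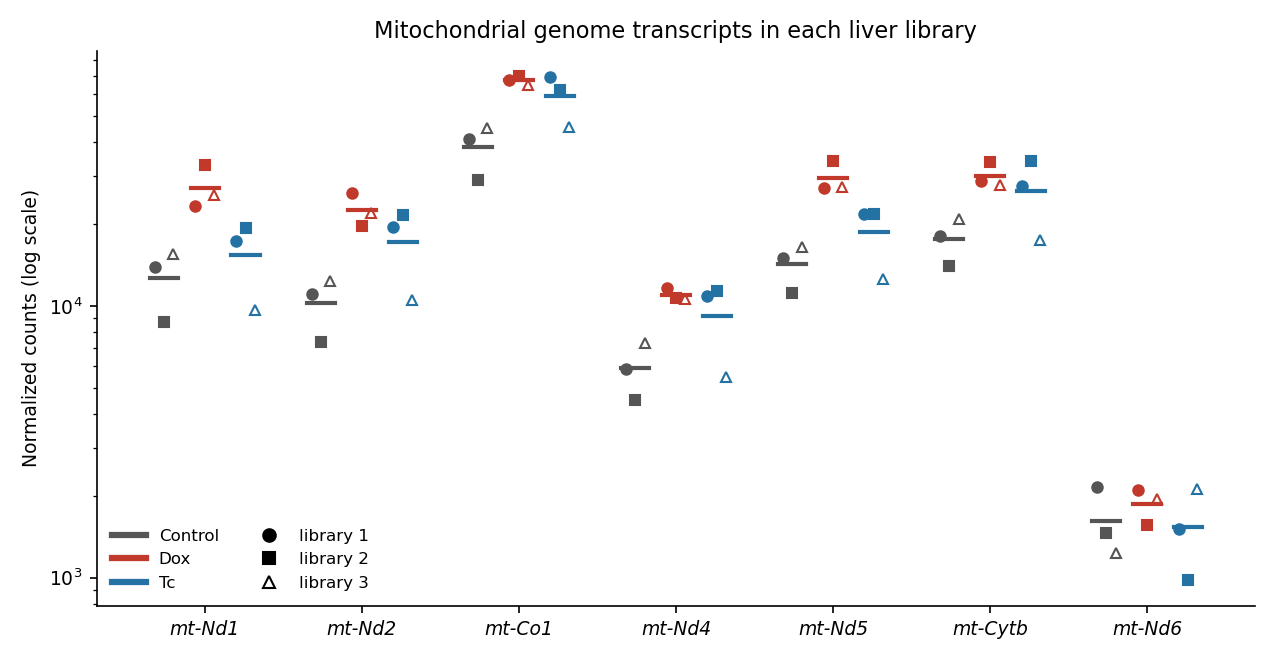
Points are normalized counts, on a log axis, of each of the 7 tested members in the control (grey), Dox (red) and Tc (blue) libraries, with open triangles for library 3, and bars are group means. The Dox points of all members but mt-Nd6 lie above every control point, and the open Tc triangles lie below the other Tc points for the same 6 members and above them for mt-Nd6.

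The fold changes against controls with Dox were tested with limma on log2(normalized count + 1) across 12100 genes, with Benjamini-Hochberg adjustment, and are differences on that scale. A gene was called at an adjusted p under 0.05 and a fold change over 2. No member was called higher (0 of 7), where 1.14% of all genes tested were. The largest differences were 1.16 for mt-Nd2 (SE 0.32, adjusted p = 0.0594), 1.13 for mt-Nd1 (SE 0.33, adjusted p = 0.0689) and 1.07 for mt-Nd5 (SE 0.28, adjusted p = 0.0519). These 3 exceeded a fold change of 2 and missed the adjusted threshold narrowly. mt-Nd4 differed by 0.92 (SE 0.30, adjusted p = 0.0899), mt-Co1 by 0.84 (SE 0.30, adjusted p = 0.110) and mt-Cytb by 0.79 (SE 0.29, adjusted p = 0.123). mt-Nd6 differed by 0.24 (SE 0.30, adjusted p = 0.627). The median over the 7 members was 0.92, against 0.0001 over all genes tested. At an unadjusted p under 0.05, 6 of 7 members were higher, as were 13.6% of all genes, and 6 of 7 had all Dox libraries above all controls, as had 16.1% of all genes.

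The number of members called with Dox turned on the test, and leaving out libraries 3 changed which members DESeq2 called. DESeq2 on the whole reads recovered from the table called 3 members higher with all 9 libraries, namely mt-Nd1 (adjusted p = 0.00783), mt-Nd2 (adjusted p = 0.00417) and mt-Nd5 (adjusted p = 0.00138), where it called 3.31% of all genes higher. The study used DESeq2 for its own differential genes. Without the fold limit, 6 of 7 members passed an adjusted p under 0.05 in this DESeq2 fit, all but mt-Nd6, and 8.77% of all genes were higher. mt-Nd4 (0.90, adjusted p = 0.0233), mt-Co1 (0.82, adjusted p = 0.00448) and mt-Cytb (0.77, adjusted p = 0.0315) missed only the fold limit. edgeR called 0 of 7 higher (1.38% of all genes), with a smallest adjusted p of 0.0509. Without libraries 3 the median member difference was 1.12, limma called no gene of 12100, and DESeq2 called mt-Nd2 (1.32, adjusted p = 0.0314), mt-Nd4 (1.12, adjusted p = 0.0157) and mt-Nd5 (1.24, adjusted p = 0.0166), where it called 0.355% of all genes higher. In that setting 4 members were higher at an unadjusted limma p under 0.05, against 3.23% of all genes.

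With Tc, the same 6 members were higher than controls in libraries 1 and 2 and near the control level in library 3. mt-Nd2 had 19572, 21568 and 10521 normalized counts, mt-Nd1 17364, 19264 and 9694, and mt-Nd4 10831, 11351 and 5470. mt-Nd5 had 21734, 21731 and 12595, mt-Cytb 27730, 34122 and 17505, and mt-Co1 69542, 62290 and 45502. In each case the third library held the low value, and only mt-Co1 stayed above all controls in it. mt-Nd6 had 1513, 977 and 2127, with the third library the highest.

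No member was called higher with Tc (0 of 7, against 0.0413% of all genes), and none passed an unadjusted p under 0.05, where 5.27% of all genes were higher. The differences from controls were largest for mt-Nd2 (0.71, SE 0.32, adjusted p = 0.442), mt-Co1 (0.62, SE 0.30, adjusted p = 0.475) and mt-Nd4 (0.60, SE 0.30, adjusted p = 0.504). mt-Cytb differed by 0.55, mt-Nd5 by 0.37, mt-Nd1 by 0.26 and mt-Nd6 by -0.10. The median was 0.55, against 0.0036 over all genes. Without libraries 3 the median was 0.93, and mt-Nd2 (1.19) and mt-Nd4 (1.11) had an unadjusted limma p under 0.05, where 0.802% of all genes were higher. All adjusted p-values were then 1. All Tc libraries lay above all controls for 1 of 7 members (15.8% of all genes), and for 6 of 7 without libraries 3 (23.6% of all genes). DESeq2 called 0 of 7 members with all 9 libraries (0.554% of all genes higher) and 0 of 7 without libraries 3 (0.0165% of all genes). With all 9 libraries 4 members were higher at an unadjusted DESeq2 p under 0.05, as were 6% of all genes. The Dox and Tc comparisons share their control libraries and are not independent of each other.

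**Figure D3:**
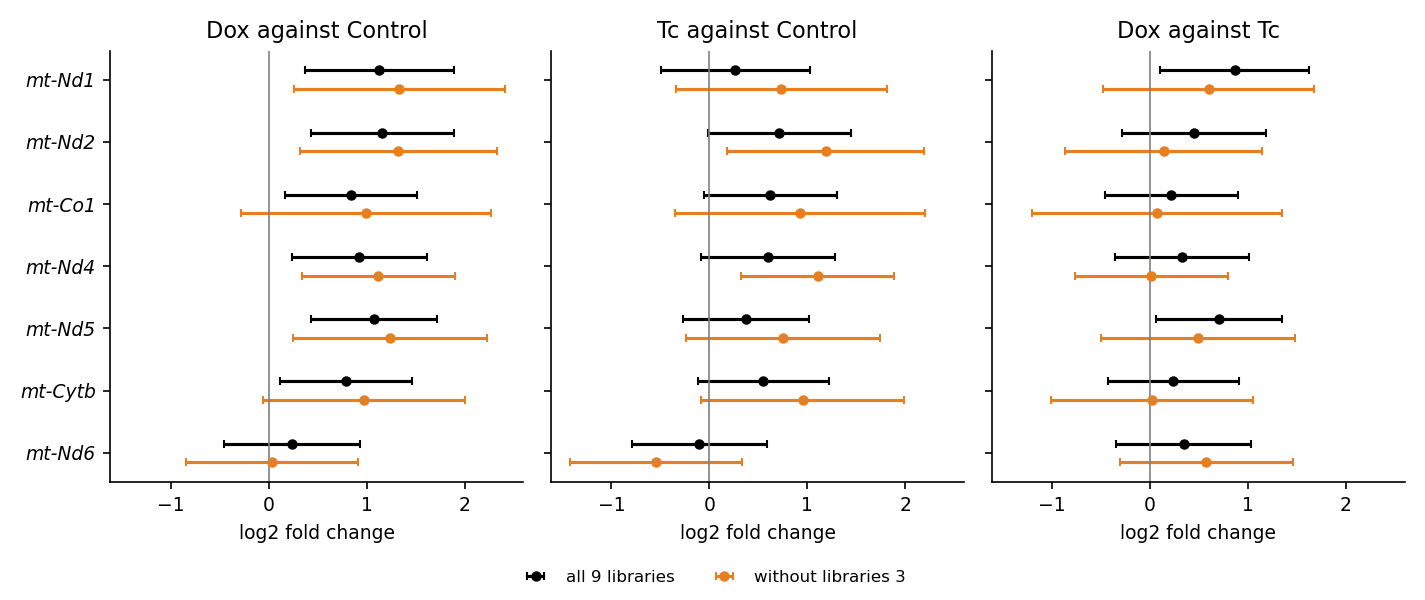
Points are log2 fold changes of the 7 tested members in the 3 comparisons, with 95% confidence intervals from limma, for all 9 libraries (black) and without libraries 3 (orange). With Dox against controls the black intervals of all members but mt-Nd6 lie above 0, and leaving out libraries 3 moves the Tc points of those 6 members to the right and their Dox against Tc points toward 0, while mt-Nd6 moves away from 0 there.

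The direct comparison of the antibiotics, 1 pair at a matched concentration and time, called no member higher with Dox (0 of 7, against 0.0413% of all genes). The amount each mouse drank is not given in the sources used here. mt-Nd1 was higher with Dox by 0.86 (95% interval 0.10 to 1.62, adjusted p = 0.196) and mt-Nd5 by 0.70 (0.06 to 1.34, adjusted p = 0.208), both at an unadjusted p under 0.05, as were 10.6% of all genes in that direction. With the replicate number as a block, which pairs same-numbered Dox and Tc libraries, neither passed an unadjusted p under 0.05 (limma adjusted p = 0.246 for mt-Nd1 and adjusted p = 0.253 for mt-Nd5). For both genes all Dox libraries lay above all Tc libraries, as for 12.2% of all genes. The other differences were 0.45 for mt-Nd2 (-0.29 to 1.18), 0.34 for mt-Nd6 (-0.35 to 1.03) and 0.33 for mt-Nd4 (-0.36 to 1.01). mt-Cytb differed by 0.24 (-0.43 to 0.91) and mt-Co1 by 0.22 (-0.46 to 0.90). These intervals hold both 0 and differences near 0.9 or above, so the data do not show that the antibiotics act alike on these messages. The median was 0.34 with all libraries and 0.14 without libraries 3. Without libraries 3, mt-Nd1 differed by 0.60 (-0.48 to 1.68) and mt-Nd5 by 0.49 (-0.50 to 1.48). Without Tc library 3 alone, mt-Nd4 (-0.0138) and mt-Cytb (-0.0339) no longer stood on the Dox side.

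The share of all counts that fell on the members does not rest on the size factors and followed the same order. It was 0.972%, 0.791% and 1.13% in the control libraries (0.965% ± 0.172, SD, n = 3). With Dox it was 1.87%, 2.38% and 1.99% (2.08% ± 0.266, SD, n = 3). With Tc it was 1.69%, 1.56% and 1.01% (1.42% ± 0.360, SD, n = 3). Every Dox library exceeded every control, and the Tc libraries did so only without library 3. A share depends on the other transcripts. With libraries scaled to the same total, the median difference of all genes with Dox was 0.17, against 0.0001 before, so the share of a typical gene rose too. The members share libraries and precursors, so the sum was given no test.

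Libraries 3 departed from the sum of libraries 1 and 2 in the mitochondrial messages. In controls, 6 members lay above both other libraries, by 0.30 to 0.46 on the log2 scale over the weighted sum, and mt-Nd6 lay below both, at -0.60. With Tc the pattern was turned around: 6 members lay below both, from -0.99 (mt-Nd4) to -0.54 (mt-Co1), and mt-Nd6 lay above, at 0.72. With Dox, 4 members lay between the other libraries and 3 just below them, from -0.07 to 0.09. Among 1421 genes with a mean of at least 1000, the share lying outside the other libraries by over 10% was 5.42% in controls, 0.211% with Dox and 9.92% with Tc. In Tc library 3, mt-Nd4, mt-Nd2 and mt-Nd1 ranked 5, 10 and 12 among all genes with a mean of at least 50 by distance from the weighted sum.

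The Tc libraries also differed among themselves in a few other transcripts. Gm42418, a locus where reads of ribosomal RNA are known to be counted, had 50277, 48366 and 95251 normalized counts in the Tc libraries, 70356, 58010 and 57899 in controls and 54342, 83886 and 66530 with Dox. Lars2, the mitochondrial leucyl-tRNA synthetase, had 467, 277 and 2175 in the Tc libraries, 1547, 595 and 1564 in controls and 1240, 878 and 1449 with Dox, and its distance from the weighted sum in Tc library 3 was 2.47. Gm15564 had 72.3, 39.6 and 378 with Tc, 323, 113 and 353 in controls and 237, 187 and 343 with Dox, at a distance of 2.65. For these 2 transcripts Tc libraries 1 and 2 lay below every other library. Tc library 3 was the highest of the 9 for each of the 3 transcripts, and for Gm15564 it lay close to control and Dox library 3. Whether the reads of Lars2 and Gm15564 came from their own messages or from ribosomal RNA was not tested. The part of the 3 transcripts in the low member values of Tc library 3 was not tested either.

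**Figure D4:**
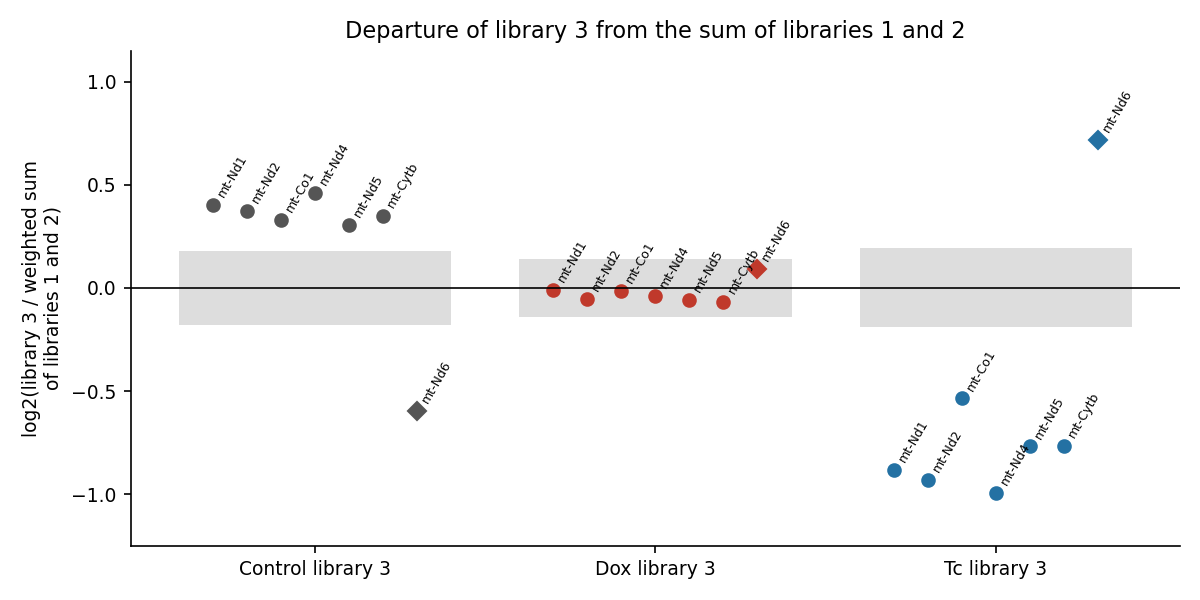
Points give log2 of the normalized count in library 3 over the fitted weighted sum of libraries 1 and 2 of the same group, for the 6 shared-strand members (circles) and mt-Nd6 (diamonds), and grey bands are 1 SD of the same value over 9379 genes of mean 50 or more. The members depart in opposite directions in control and Tc library 3, with mt-Nd6 opposite to the others in each, and stay inside the band with Dox.

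mt-Nd6 did not follow the other members. The summed normalized counts of the 6 shared-strand members were 48.6, 51.2 and 95.3 times those of mt-Nd6 in the control libraries. The ratio was 88.2, 128 and 91.6 with Dox and 110, 174 and 47.6 with Tc. Libraries 1 and 2 lay higher with either antibiotic than in controls, while control library 3 lay within the range of the Dox libraries and Tc library 3 below all controls. The ratio therefore separates the drug libraries from controls only without libraries 3, and Dox and Tc overlap in it. mt-Nd6 overlaps the end of mt-Nd5 by 14 bases on the opposite strand. Whether reads were counted by strand is not given in the sources used here, and without strand, reads of mt-Nd6 and of the opposite transcript cannot be told apart.

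**Figure D5:**
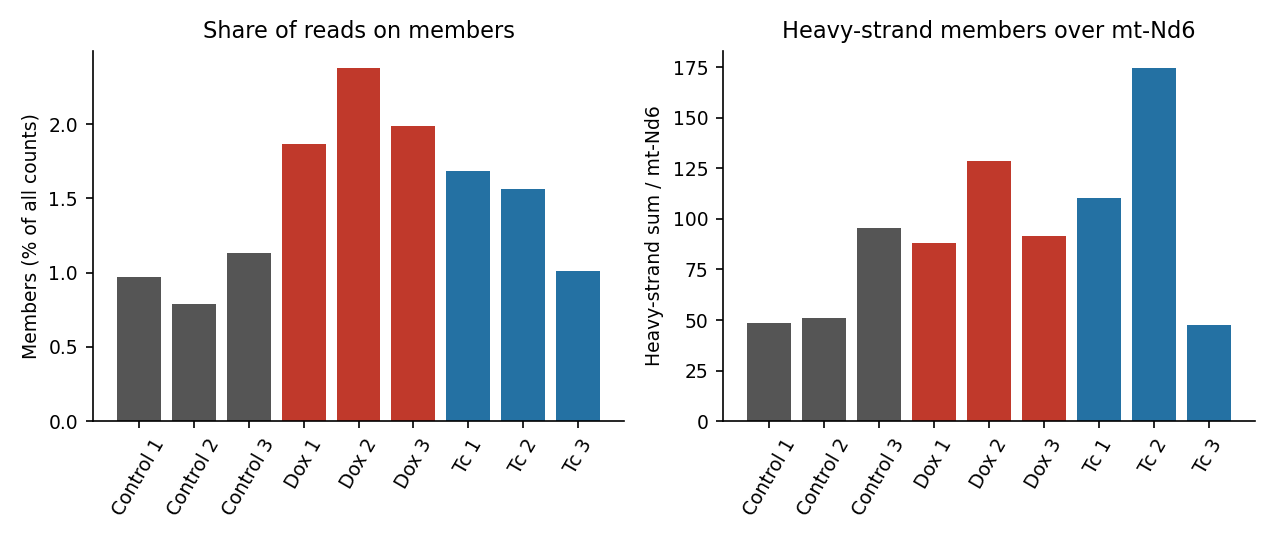
Bars give, for each of the 9 libraries, the percent of all normalized counts on the members (left) and the summed counts of the 6 tested shared-strand members divided by those of mt-Nd6 (right), in grey for controls, red for Dox and blue for Tc. The left panel runs from 0.791% in control library 2 to 2.38% in Dox library 2, and the right from 47.6 in Tc library 3 to 174 in Tc library 2.

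Within the shared strand, the members kept similar proportions, with small shifts that differed between the antibiotics. Shares of the 6-gene sum need no size factor. mt-Co1 took 38.4% to 39.1% of the sum in controls, 34.8% to 36.7% with Dox and 36.6% to 44.9% with Tc. mt-Cytb took 17.2% to 18.7% in controls, 15.6% to 16.8% with Dox and 16.6% to 20.0% with Tc. For both genes the Dox range lay below the control range, while the Tc range overlapped it. mt-Nd1 took 11.6% to 13.3% in controls, 12.6% to 16.4% with Dox and 9.57% to 11.3% with Tc. mt-Nd5 took 14.0% to 14.9% in controls, 14.7% to 17.0% with Dox and 12.4% to 13.0% with Tc. For these 2 complex I genes the Tc range, library 3 included, lay below the ranges of both other groups. mt-Nd2 (9.86% to 10.5% in controls) and mt-Nd4 (5.59% to 6.20%) overlapped in every pair of groups. These ranges were not tested, since a share of 1 gene fixes the others in part.

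Of the nuclear genes that transcribe and copy mitochondrial DNA, none of 25 tested was called with either antibiotic, and with Dox 3 fell at an adjusted p under 0.05 with a fold change under 2 (5.26% of all genes did so, at any fold change). Tfam, which packages mitochondrial DNA and is needed to start its transcription, had 743, 584 and 723 normalized counts in controls, 463, 439 and 420 with Dox and 409, 528 and 426 with Tc. It stood below all controls in all 6 drug libraries, by -0.62 with Dox (SE 0.15, adjusted p = 0.0369) and -0.59 with Tc (SE 0.15, adjusted p = 0.185). Top1mt, the mitochondrial type I topoisomerase, had 273, 277 and 242 in controls, 203, 190 and 180 with Dox and 181, 186 and 183 with Tc. Its differences were -0.46 (adjusted p = 0.0443) and -0.52 (adjusted p = 0.161). Endog, a mitochondrial nuclease, differed by -0.89 with Dox (adjusted p = 0.0144) and -0.28 with Tc (adjusted p = 0.519). Without libraries 3 the limma adjusted p-values with Dox were 0.578 for Tfam, 0.573 for Top1mt and 0.560 for Endog. No gene of 12100 passed in that fit, so it cannot decide whether these 3 falls hold.

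Polrmt, the mitochondrial RNA polymerase, differed by 0.07 with Dox and -0.17 with Tc. Tefm, its elongation factor, differed by 0.11 and 0.06, and Tfb2m, its initiation factor, by 0.30 and 0.17. None of these differences passed the test. Mterf3, a member of the mitochondrial termination factor family, differed by 0.64 with Dox (adjusted p = 0.120) and 0.17 with Tc. The median over the 25 genes was -0.04 with Dox and -0.06 with Tc.

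Of 29 tested genes for mitochondrial RNA processing and stability, 1 was called higher with Dox (1.14% of all genes) and 0 with Tc (0.0413%). It was Fastk, whose mitochondrial form is known to be needed for the mt-Nd6 message, with 224, 216 and 224 normalized counts in controls and 319, 777 and 441 with Dox (1.11, SE 0.28, adjusted p = 0.0456). With Tc it had 301, 266 and 324. Lrpprc and Slirp, which form a complex that stabilises mitochondrial messages, differed by 0.06 and 0.27 with Dox and by 0.22 and 0.51 with Tc, and none passed the adjusted threshold. The list median was 0.27 with Dox and 0.22 with Tc.

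Of 12 nuclear regulators of mitochondrial genes, 2 were called higher with Dox (1.14% of all genes) and 0 with Tc (0.0413%). Ppargc1b, a coactivator of mitochondrial genes, had 166, 127 and 156 normalized counts in controls, 280, 640 and 409 with Dox and 250, 153 and 254 with Tc. Its difference with Dox was 1.48 (SE 0.31, adjusted p = 0.0272). Pprc1, a relative of it, had 206, 187 and 197 in controls and 298, 691 and 437 with Dox, a difference of 1.19 (SE 0.31, adjusted p = 0.0492). The second Dox library was the highest for both and for Fastk. Ppargc1a, the best known of these coactivators, had 204, 82.3 and 135 in controls and 109, 1463 and 604 with Dox, and the first Dox library lay within the control range (1.80, SE 0.80, adjusted p = 0.176). None of the 3 called genes passed without libraries 3, with limma adjusted p-values of 0.559 to 0.573 and DESeq2 adjusted p-values of 0.130 to 0.297. That limma fit passed no gene of 12100. The list median was 0.44 with Dox and 0.07 with Tc.

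The nuclear partners of the members, 74 tested subunits of complexes I, III, IV and V, had smaller median differences than the members, without a test between the lists. None was called. With Dox, 57 of 74 were above controls with a median of 0.25, and with Tc 69 of 74 with a median of 0.25. The medians over all genes were 0.0001 and 0.0036. Uqcr10 of complex III had 410, 393 and 417 normalized counts in controls and 666, 706 and 666 with Dox, and rose by 0.74 (SE 0.13, adjusted p = 0.0158). Cox6b1 of complex IV rose by 0.65 with Dox (SE 0.14, adjusted p = 0.0296) and differed by 0.58 with Tc (adjusted p = 0.180). With Dox, 3 subunits passed the adjusted threshold without reaching a fold change of 2, all higher, as did 3.16% of all genes. Without libraries 3, limma passed none of 12100 genes at an adjusted p under 0.05, these subunits included. The largest difference with Tc among subunits with a mean of at least 50 was Ndufs7 of complex I, at 0.60 (adjusted p = 0.218). The lowest values were those of Ndufa1 and Ndufv3 of complex I, at -0.55 and -0.34 with Dox and -0.14 and -0.11 with Tc, and neither passed the test. By complex, the medians with Dox and Tc were 0.19 and 0.21 for complex I, 0.36 and 0.26 for complex III, 0.41 and 0.20 for complex IV, and 0.30 and 0.30 for complex V.

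Among the nuclear genes whose level ran most like the mean of the tested members over the 9 libraries were Trappc8 (Pearson r = 0.983), Eif4g2 (0.976), Zfp942 (0.973) and Taok1 (0.965). The median r over 9372 genes of mean 50 or more was 0.06. The libraries share groups, and libraries 3 resemble the others, so these are descriptions. All 4 were lower in Tc library 3 than in the other Tc libraries, which is a feature of the member mean by which they were chosen. Eif4g2, a translation initiation factor, had 4804, 4242 and 5056 normalized counts in controls, 6702, 6978 and 6390 with Dox and 5933, 5497 and 4572 with Tc. Without libraries 3 their r ranged from 0.959 to 0.990. In all, 60 genes had an r over 0.9.

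With Tc, no marker of any cell type list passed the adjusted threshold. With Dox, 3 of 10 Kupffer cell and macrophage, 6 of 10 sinusoidal endothelial and 4 of 6 tested erythroid markers were lower at an adjusted limma p under 0.05. So were 1 of 12 hepatocyte and 1 of 4 tested lymphocyte and neutrophil markers, against 5.26% of all genes. Of 3 tested cholangiocyte markers, 1 was higher (3.16% of all genes), and no stellate marker passed. Without libraries 3, limma passed none of 12100 genes. Kupffer cell and macrophage markers, 10 of 10 at a mean of at least 10, summed to 9241 to 17088 normalized counts in controls, 2583 to 8746 with Dox and 4553 to 9043 with Tc. Sinusoidal endothelial markers, 10 of 10, summed to 8732 to 9169, 4616 to 5907 and 7068 to 7975. Stellate cell markers, 10 of 10, summed to 5135 to 5394, 4430 to 5557 and 5120 to 5800, and overlapped. Of the cholangiocyte, lymphocyte and neutrophil, and erythroid lists, 3 of 8, 4 of 10 and 6 of 8 markers reached a mean of 10. Their sums were 206 to 245, 65.6 to 288 and 1535 to 6078 in controls, 150 to 379, 24.2 to 105 and 763 to 2495 with Dox, and 260 to 340, 37.1 to 124 and 1334 to 2126 with Tc. None of the listed markers with a row was at 0 in all libraries. The part of cell makeup in the member levels was not tested.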

How the data were processed

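RNA sequencing of mouse liver in 9 libraries was analysed. Per the labels, total RNA was isolated with an RNeasy kit (the study's methods name another kit) and sequenced from directional libraries as single-end reads of 86 bases. Poly(A) selection or ribosomal RNA depletion is not given in the sources used here. The authors trimmed reads with cutadapt, aligned them to mm10 with STAR 2.7.11ac, counted uniquely mapped reads with HTSeq 2.0.5 and deposited normalized counts (a signal: read counts over the size factors of DESeq2 1.42.0). Members of a multicopy sequence are therefore undercounted.

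Groups followed the sample titles. Values were tested with limma 3.58.1 (with trend, R 4.3.3) on log2(normalized count + 1) in 1 model of all 9 libraries, keeping 12100 genes whose mean was 10 or more. Symbols were found for 32158 of 32285 rows. Whole reads were recovered for 100% of values (tolerance 0.01 read) and the alternatives edgeR 4.0.16 and DESeq2 1.42.0 were run on them. The same limma steps were run on simulated data with known changes. Those changes were larger than the member differences and the simulated libraries were independent, so that run does not bear on the member results. Nuclear copies were searched as exact windows and with blastn 2.17.0 in the GENCODE transcripts of GRCm38. No genome was searched. Depth was 7426136 to 12183041 reads on genes per library, which makes counting error small beside the spread between libraries. The study calls its replicates independent samples and biological replicates, the labels tie no library to an animal, and p-values measure the spread between these libraries. The members and lists were chosen with earlier results of these data known.

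Same-numbered Dox and Tc libraries, paired by the numbers in the sample titles, had correlated deviations (Pearson r of 0.29, 0.32 and 0.18 for the 3 pairs), while controls did not pair with either (-0.08 to 0.06). Since libraries 3 resemble the others, these 3 values are not independent. Fits with the replicate number as a block were made as alternatives.

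Named genes were all members, the other mitochondrial protein genes, 8 fixed transcription, RNA and regulator genes, called genes and the 2 with the smallest p per drug in those lists, the nuclear subunits of mean 50 or more with the 2 largest and 2 smallest differences per drug, and the 5 genes most like the members, of which 1 is not reported here. Gm42418, Lars2 and Gm15564 were chosen after their values were seen.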

Additional observations from a re-analysis of the deposited data

How the results depend on the processing

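With Dox against controls, the count of members called was 0 in limma with all 9 libraries. It was 1 with a mean of at least 50 (1.03% of all genes were called higher), 4 with libraries scaled to the same total (2.02%), 5 with the same total outside the mitochondrial genome (2.23%), 3 with DESeq2 on the recovered reads (3.31%), 3 with DESeq2 without library 3 of each group (0.355%), and 3 at an unadjusted p with the same fold limit (2.51%). Both rescalings moved the median of all genes by 0.17 and 0.19, so 1.10 and 1.11 for the member median compare with those shifts. Leaving out 1 library at a time, the count ranged from 0 to 2: it was 2 without Dox library 1 and 1 without Dox library 2, where 5.47% and 2.55% of all genes were called higher, against 1.14% with all libraries. With array weights 1 member, mt-Nd1 at 1.17, was called for Dox against Tc (4.28% of all genes higher), the median for Tc against controls was 0.10, and mt-Nd1 (-0.27), mt-Nd5 (-0.0608) and mt-Nd6 (0.36) turned sign there. Those weights did not converge and gave Dox library 3 a weight of 21179, against at most 1.55 in any other library, so that fit rests on 1 Dox library. Leaving out 1 library at a time, mt-Nd6 for Tc against controls ranged from -0.37 to 0.19, positive without control library 1 or Tc library 2. mt-Nd4 for Dox against Tc ranged from -0.0138 to 0.51 and mt-Cytb from -0.0339 to 0.45, negative only without Tc library 3. The cause of these shifts was not tested. The member medians kept their sign under every alternative run, and leaving out single libraries moved them between 0.75 and 1.09 with Dox, 0.34 and 0.80 with Tc, and 0.12 and 0.51 for Dox against Tc. With the replicate block, 0 members were called in each comparison, as without it. The smallest adjusted p with Dox was 0.0850. For Dox against Tc, mt-Nd1 and mt-Nd5 no longer passed an unadjusted p under 0.05 with the block and all 9 libraries. With the block and only the Dox and Tc libraries, mt-Nd1 passed that unadjusted limit and mt-Nd5 did not, and no member was called. Of the member counts, member medians and read shares, 146 stayed near the value of the first analysis and 10 moved. A median counted as near within 0.43, the SD between libraries of a group. That margin is wider than the Dox against Tc median itself (0.34), and leaving out a Tc library could not move the median for Dox against controls. The tally is therefore no measure of how stable the medians are. A share counted as near within the SD of its group, and a count of 0 only if it stayed 0. Of the values of single members, 442 kept their sign and call, 20 passed the threshold that they had missed and 7 turned sign. Counting depth does not limit the 7 tested members, while the number of libraries does, and the 3 lost members cannot be measured from uniquely mapped reads of this length.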
